A study of Mus musculus with 30 samples.

Results

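Protocadherins are cell-surface proteins of the cadherin superfamily that are best known in the developing nervous system. The clustered protocadherins sit side by side in 3 neighbouring arrays named alpha, beta and gamma, and each neuron switches on its own small set of them, which gives its membrane an identity that sister branches recognise and avoid. The non-clustered, or delta, protocadherins are separate genes, each with its own regional pattern in brain and other tissues, and several of them, such as Pcdh19, pair with classical cadherins or feed into actin regulation.

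All rows of the gene count table whose symbol begins with Pcdh were taken, which gave 36 of 25400 genes. They comprised 24 clustered rows, namely 22 Pcdhb genes, 1 alpha row and 1 gamma row, and 12 non-clustered genes. Of these, 35 of 36 passed the filter on low counts, and Pcdhb1, which had at most 8 reads in any library, did not. The alpha row carries the symbol Pcdha10 and the gamma row the symbol Pcdhgc4, but the annotation names these gene models Pcdha11 and Pcdhgc5. Each model joins 10 annotated transcripts that start at 10 different first exons, over 257373 bases for alpha and 167539 bases for gamma. Whether these transcripts are all the isoforms of a cluster was not checked. The models are called the alpha row and the gamma row here, because the separate alpha and gamma isoforms cannot be told apart in these counts.

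The values come from poly(A) RNA-seq of 24 libraries of mouse neuronal progenitor cells (NPCs) differentiated in vitro from embryonic stem cells (ESCs) of the HA36CB1 line, a 129 x C57BL/6 cross, with 3 libraries for each of 8 lines. WT was the parental genotype, and Mbd3 KO carried a CRISPR-Cas9 knockout of Mbd3, a subunit of the NuRD chromatin remodelling and deacetylase complex. The other 6 lines were all Mbd3 KO cells that also expressed, from the CAG promoter at 1 recombination site and with a biotin tag in cells positive for the biotin ligase BirA, 1 of the following proteins: MBD3a, MBD3a without its methyl-CpG binding domain (MBD3a_delMBD), MBD2a, MBD2a without its glycine-arginine stretch (MBD2a_delGR), MBD2a with an arginine-to-cysteine change in the methyl-CpG binding domain (MBD2a_R181C as labelled) or the shorter isoform MBD2t. The MBD2t libraries were repeats of a single clone, so their small spread is not that between clones, whereas the libraries of the other lines came from clones derived one by one. Total counts were between 27993858 and 49392806 per library.

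Levels below are CPM, the counts of a gene divided by the library size and brought to a common total, with library sizes scaled by the trimmed mean of M values, and a gene is called changed where edgeR's quasi-likelihood test, fitted to all 24 libraries and adjusted over 16582 genes by the Benjamini-Hochberg method, gave an adjusted p under 0.05 together with an absolute log2 fold change above 1. Mbd3 reads fell from between 149 and 157 CPM in WT to between 34.3 and 73.8 CPM in Mbd3 KO. Mbd2 reads were between 64.3 and 70.9 CPM in Mbd3 KO and only between 67.0 and 87.2 CPM in the MBD2a line, against 253 to 700 CPM in MBD2a_delGR, MBD2a_R181C and MBD2t. These are RNA reads, and the level of the protein was not measured in these files. By Western blot of the ESC lines, the paper reports equal protein levels for MBD2a and MBD2a_delGR. The summed CPM of the neural progenitor markers in the table was between 748 and 913 in WT but between 65.0 and 156 in Mbd3 KO, MBD2a and MBD2t, whose cells are labelled as NPCs too. Pluripotent cell markers were called higher in 7 of 7, 6 of 7 and 7 of 7 cases in these lines. Trophoblast markers were called higher in 7 of 7, 5 of 7 and 7 of 7. For endoderm markers it was 1 of 8, 6 of 8 and 1 of 8. Of all genes, 19.6%, 16.9% and 18.2% were called higher in Mbd3 KO, MBD2a and MBD2t. The 1 of 8 endoderm markers in Mbd3 KO and in MBD2t was thus no more than the background share. In MBD2t 1 of 8 was also called lower (15.1% of all genes were). In MBD2a_delGR all 8 endoderm markers were called higher (2.69% of all genes were), with a summed level of 121.8, 98.55 and 1376 CPM against 51.7 to 73.0 CPM in WT, so that most of it lay in 1 library. Each protocadherin difference between these lines and WT was therefore measured between cultures that also differed in cell type markers. In such bulk samples fewer cells of a type and less RNA per cell cannot be told apart.

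The first question was what happened to the family when Mbd3 was lost. In Mbd3 KO, 28 of 35 tested protocadherins were called lower than in WT, against 14.2% of all genes tested, and only Pcdh1 was called higher, against 19.6% of all genes. The median log2 fold change of the 35 was -3.48, and that of all genes tested was -0.03. All 21 tested Pcdhb genes, the alpha row and the gamma row were among the lower ones, together with 5 of 12 non-clustered genes. These 23 clustered rows lie within 911589 bases of chromosome 18 and are not independent of each other.

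The alpha row, which stands for cell-surface isoforms that share their cytoplasmic part, spans chr18:37089939-37347311 (mm9, + strand). WT stood at 35.1, 26.2 and 10.7 CPM, and Mbd3 KO at 0.486, 1.26 and 1.40 CPM. Every Mbd3 KO library lay below every WT library, and the log2 fold change was -4.49 ± 0.54 (SE, edgeR adjusted p = 2.11e-06). The gamma row, chr18:37833989-38001527 (+ strand), moved far less. It had 203, 185 and 110 CPM in WT and 37.7, 96.0 and 90.1 CPM in Mbd3 KO, without overlap, for a log2 fold change of -1.16 ± 0.30 (edgeR adjusted p = 0.00297). That call rested on its size, since it became -0.84 without the Mbd3 KO library with the lowest value, -0.99 without 1 of the WT libraries and -0.995 when no scaling factor was used, all short of the threshold of 1. The annotated Gm10545 and Gm16882 overlap exons of the alpha and gamma rows on the opposite strand, and since the strand setting of the counting is not given in the sources used here, their reads cannot be told apart from those of the rows.

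Summed over the 22 genes, the beta cluster had 166, 125 and 67.4 CPM in WT and 0.943, 12 and 14.4 CPM in Mbd3 KO. The mean fell from 119.5 ± 49.7 (SD, n = 3) to 9.10 ± 7.16 CPM (SD, n = 3), and the groups did not overlap. The lowest Mbd3 KO library had 33 Pcdhb reads in all, with 9 of the 22 genes at 0 reads, while the other Mbd3 KO libraries had 542 and 543. Because beta fell more than gamma, there were 1.22 to 1.64 gamma CPM for each beta CPM in the WT libraries and 6.27 to 39.9 in the Mbd3 KO libraries. The plot of the clusters by library shows these levels for all lines.

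**Figure D1:**
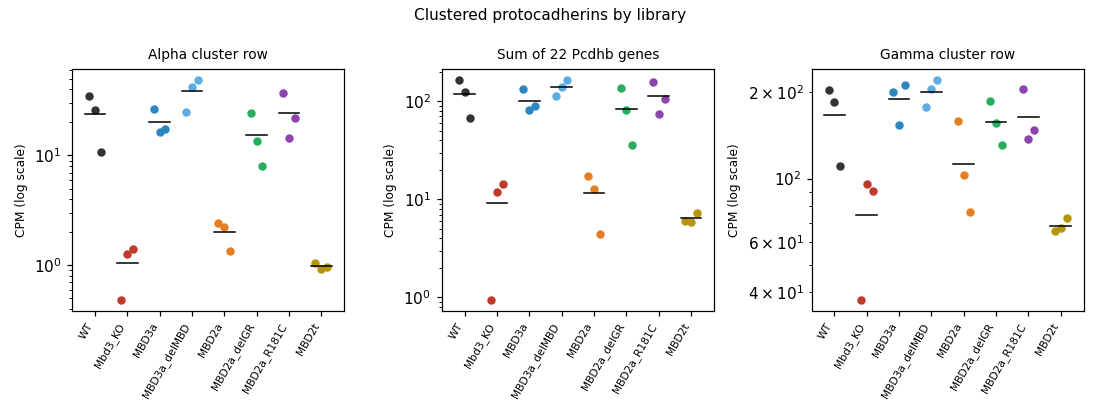
Levels of the alpha row, the sum of the 22 Pcdhb genes and the gamma row in CPM on a log axis, with 1 point per library, 3 libraries per line and a bar at the mean. Alpha and beta sit far lower in Mbd3 KO, MBD2a and MBD2t than in the other 5 lines, with no beta sum above 17.4 CPM in the former and none below 36.1 CPM in the latter.

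Each Pcdhb gene is a short gene, with 20 of 22 in a single annotated exon block, and the array covers 256422 bases. Their log2 fold changes in Mbd3 KO ran from -4.94 to -2.69 with a median of -3.65, so that all 21 tested genes of the array were lower. The untested Pcdhb1 was near 0 in both lines, with a mean of 0.0343 CPM in WT and 0.0560 CPM in Mbd3 KO. Pcdhb8, the gene with the largest change, had 4.21, 2.61 and 1.31 CPM in WT and 0, 0.0664 and 0.185 CPM in Mbd3 KO (log2 fold change -4.94 ± 0.79, edgeR adjusted p = 2.36e-05). Pcdhb2 followed, with 5.80, 3.93 and 2.02 CPM against 0, 0.155 and 0.212 CPM (-4.91 ± 0.84, edgeR adjusted p = 5.46e-05), and then Pcdhb6 (-4.35 ± 0.78, edgeR adjusted p = 0.000102). The most abundant members were Pcdhb17 and Pcdhb22. Pcdhb17 had 20.1, 14.6 and 8.72 CPM in WT against 0.114, 1.53 and 1.46 CPM in Mbd3 KO (-3.76 ± 0.54, edgeR adjusted p = 1.11e-05). For Pcdhb22, the last gene of the array and the nearest to the gamma cluster, the libraries had 17.02, 10.9 and 9.62 CPM in WT and 0.229, 1.44 and 2.195 CPM in Mbd3 KO (-3.25 ± 0.51, edgeR adjusted p = 2.74e-05). None of these WT and Mbd3 KO values overlapped.

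**Figure D2:**
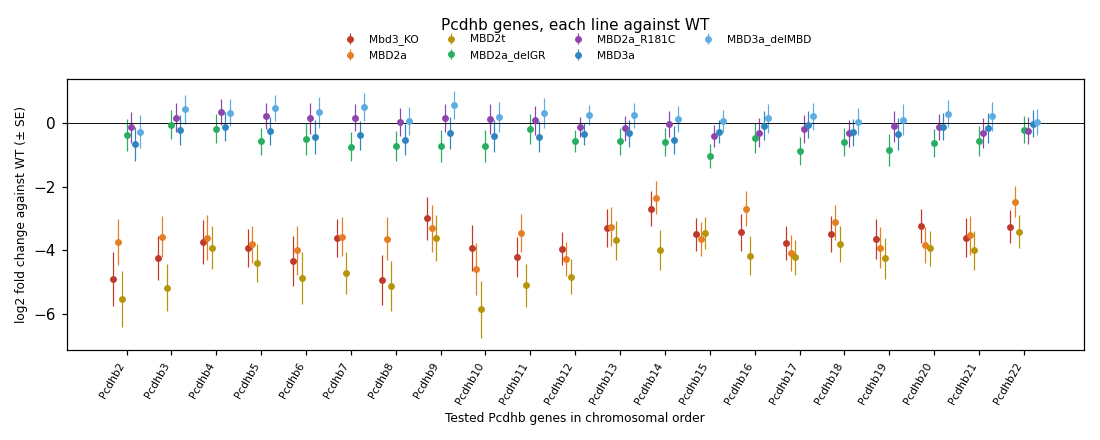
Log2 fold change against WT with its SE for the 21 tested Pcdhb genes, in their order along chromosome 18, with a colour for each of 7 lines. Mbd3 KO, MBD2a and MBD2t lie between -5.86 and -2.34 at every gene, and the other 4 lines lie between -1.03 and 0.56.

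The makeup of the beta reads was compared as shares, with no test. Pcdhb17 was the top gene in the pooled WT reads with 12.2% of 13503 Pcdhb reads, followed by Pcdhb22 with 10.6%. In Mbd3 KO the top gene was Pcdhb22 with 13.95% of 1118 reads, in MBD2a it was Pcdhb22 with 19.9% of 1213 reads and in MBD2t again Pcdhb22 with 18.2% of 874 reads. Pcdhb22 also led in MBD2a_delGR, with 13.03% of 8418 reads. Single libraries went the other way, since Pcdhb22 led in 1 WT library (14.28% against 12.94% for Pcdhb17) and Pcdhb17 in 1 Mbd3 KO library (12.73% against 11.99%). The shares in Mbd3 KO, MBD2a and MBD2t rest on few reads. Near-identical sequence is a possible source of miscounted reads in such an array. Of the 76553 windows of 150 bases in Pcdhb exons, 12 occurred unchanged in another protocadherin of the table, which is 0.0157%, and for windows of 50 bases the share was 4.82%, with the highest share, 12%, in Pcdhb12.

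As a description of the array's start sites, the 250 bases before each annotated gene start were searched for CGCT, the core of a motif known from clustered protocadherin promoters, on both strands, where its reverse complement reads AGCG. All 22 Pcdhb windows held it (100%), against 9 of 12 windows of the non-clustered genes (75%) and 56.7% of the windows of all 25400 genes. Pcdhb windows held between 1 and 10 CpG dinucleotides with a median of 4.5, while those of the non-clustered genes held between 2 and 27 with a median of 13, and the median over all genes was 7. A match of 4 letters describes the window and is not a binding site.

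Among the non-clustered genes, the delta-2 group (Pcdh8, Pcdh10, Pcdh17, Pcdh18 and Pcdh19), whose members bind regulators of the actin cytoskeleton or take part in neural migration and sorting, held 4 of the 5 genes called lower in Mbd3 KO. Per kb of exon, Pcdh8 (11.5 CPM per kb), Pcdh19 (7.50) and Pcdh18 (5.64) were the most abundant non-clustered genes in WT. Because these genes moved together, the 250 bases upstream of their annotated starts are printed below from the mm9 genome, 5' to 3' on the gene's strand, with each CpG in capitals. The windows are chr14:80171120-80171369 (- strand) for Pcdh8, chr3:45182070-45182319 (+ strand) for Pcdh10, chr3:49561239-49561488 (- strand) for Pcdh18 and chrX:130223533-130223782 (- strand) for Pcdh19. Pcdh17, whose window chr14:84843120-84843369 (+ strand) is printed as the delta-2 gene that was not called, stands last.
Pcdh8: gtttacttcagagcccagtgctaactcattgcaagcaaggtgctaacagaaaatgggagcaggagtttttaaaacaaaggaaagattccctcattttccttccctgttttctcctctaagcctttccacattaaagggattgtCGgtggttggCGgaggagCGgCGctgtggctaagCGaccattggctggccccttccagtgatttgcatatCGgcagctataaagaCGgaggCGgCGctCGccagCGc
Pcdh10: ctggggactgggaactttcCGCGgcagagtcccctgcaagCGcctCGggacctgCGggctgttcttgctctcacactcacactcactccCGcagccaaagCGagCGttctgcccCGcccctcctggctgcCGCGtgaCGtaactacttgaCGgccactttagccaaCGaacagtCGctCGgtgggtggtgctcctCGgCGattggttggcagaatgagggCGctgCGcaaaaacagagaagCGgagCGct
Pcdh18: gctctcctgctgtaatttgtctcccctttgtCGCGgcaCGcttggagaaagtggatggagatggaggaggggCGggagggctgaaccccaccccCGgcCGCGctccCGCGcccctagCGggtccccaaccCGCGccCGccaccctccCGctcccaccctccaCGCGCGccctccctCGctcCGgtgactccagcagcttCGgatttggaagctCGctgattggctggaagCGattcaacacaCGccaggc
Pcdh19: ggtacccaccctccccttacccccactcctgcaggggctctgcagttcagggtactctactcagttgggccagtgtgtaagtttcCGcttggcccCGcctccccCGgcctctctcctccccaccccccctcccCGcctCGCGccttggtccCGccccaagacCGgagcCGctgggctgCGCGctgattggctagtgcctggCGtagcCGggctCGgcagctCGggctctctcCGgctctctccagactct
Pcdh17: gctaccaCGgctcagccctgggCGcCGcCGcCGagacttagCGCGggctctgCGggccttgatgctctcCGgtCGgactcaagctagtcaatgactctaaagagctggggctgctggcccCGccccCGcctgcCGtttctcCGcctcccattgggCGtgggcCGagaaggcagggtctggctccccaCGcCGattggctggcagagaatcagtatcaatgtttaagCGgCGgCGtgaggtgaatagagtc
The windows hold 11, 22, 23, 16 and 21 CpGs in the order printed. All 5 are above the median of 7 over all genes, and the uncalled Pcdh17 does not stand apart from the others in this count.

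Pcdh8, also known as arcadlin, had 56.6, 50.1 and 31.1 CPM in WT and 0.800, 5.22 and 5.53 CPM in Mbd3 KO, a log2 fold change of -3.56 ± 0.52 (edgeR adjusted p = 1.39e-05). Pcdh19, an X-linked gene mutated in an early infantile epilepsy, had 95.4, 92.6 and 43.7 CPM against 1.74, 7.35 and 5.90 CPM (-3.93 ± 0.50, edgeR adjusted p = 3.36e-06). Both genes were lower in every Mbd3 KO library than in any WT library. Pcdh10, which promotes axon growth in the forebrain, had 14.6, 15.1 and 6.65 CPM against 0.172, 1.68 and 1.80 CPM (-3.27 ± 0.65, edgeR adjusted p = 0.000267). Pcdh18 had 38.4, 31.1 and 17.8 CPM against 0.372, 7.68 and 7.54 CPM (-2.47 ± 0.64, edgeR adjusted p = 0.00268). In neither did the groups overlap. Pcdh17 had 7.78, 5.89 and 4.12 CPM in WT and 0.572, 4.16 and 3.52 CPM in Mbd3 KO, which overlapped, and its log2 fold change of -1.08 ± 0.58 did not pass the test (edgeR adjusted p = 0.113). The annotated Gm16795 overlaps exons of Pcdh19 on the opposite strand, with the same limit on strand as above.

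Of the delta-1 group (Pcdh1, Pcdh7, Pcdh9 and Pcdh11x), whose long cytoplasmic tails bind protein phosphatase 1, Pcdh1 was the one protocadherin that rose. Known in epithelial barriers, it had 18.9, 36.3 and 23.2 CPM in WT and 235, 116 and 124 CPM in Mbd3 KO, without overlap (log2 fold change 2.60 ± 0.34, edgeR adjusted p = 4.27e-06). The trophoblast markers rose beside it, with 7 of 7 called higher (19.6% of all genes were), and their part in the difference was not tested. Pcdh7 (-0.999 ± 0.63, edgeR adjusted p = 0.18), Pcdh9 (-1.56 ± 0.67, edgeR adjusted p = 0.0525) and Pcdh11x (-0.17 ± 0.67, edgeR adjusted p = 0.838) did not pass the test. In all 3 genes the same Mbd3 KO library was far below the other Mbd3 KO libraries, with 0.372 against 4.38 and 5.13 CPM for Pcdh7, 0.0572 against 1.37 and 1.825 CPM for Pcdh9 and 0.0572 against 1.42 and 1.19 CPM for Pcdh11x. It is the library with the lowest beta sum, and also the one with the highest Pcdh1.

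That library had the lowest level of its line in 35 of 36 protocadherins, all but Pcdh1. Its summed pluripotent cell markers stood at 992 CPM against 526.5 and 312 CPM in the other Mbd3 KO libraries, and its Mbd3 level at 34.3 CPM against 73.8 and 69.1 CPM. Without it 27 protocadherins were called in place of 29, and leaving out any single library of these lines gave between 27 and 30. Every other line also had a library that was the lowest in most members. The count was 33 of 36 in WT, 35 in MBD2a_delGR, 31 in MBD2a and 29 in MBD2a_R181C. In MBD3a_delMBD it was 27, in MBD3a 23 and in MBD2t 19. That WT library had pluripotent cell markers at 168 CPM, against 22.6 and 37.25 CPM in the other WT libraries. Its neuron markers were at 1240 CPM against 3074 and 2581 CPM.

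The remaining 3 genes were Pcdh12, Pcdh15 and Pcdh20, of which the last pair were scarce. Pcdh12, also called VE-cadherin-2 and found in endothelium and trophoblast, was not called in Mbd3 KO, with 3.78, 5.64 and 5.82 CPM in WT and 4.52, 10.3 and 8.73 CPM in Mbd3 KO (0.63 ± 0.39, edgeR adjusted p = 0.168). Pcdh15, a component of the tip link in hair cells, lay between 0.0416 and 1.095 CPM over all 24 libraries and was called in no comparison with WT or Mbd3 KO. Pcdh20 was called lower in Mbd3 KO by a narrow margin, with 0.9125, 0.880 and 0.560 CPM in WT and 0, 0.332 and 0.450 CPM in Mbd3 KO (-1.52 ± 0.64, edgeR adjusted p = 0.0476). It lost the call under 11 of 13 alternatives, with adjusted p between 0.0343 and 0.162, and fell by 1.01 on the log2 scale without the lowest Mbd3 KO library.

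**Figure D3:**
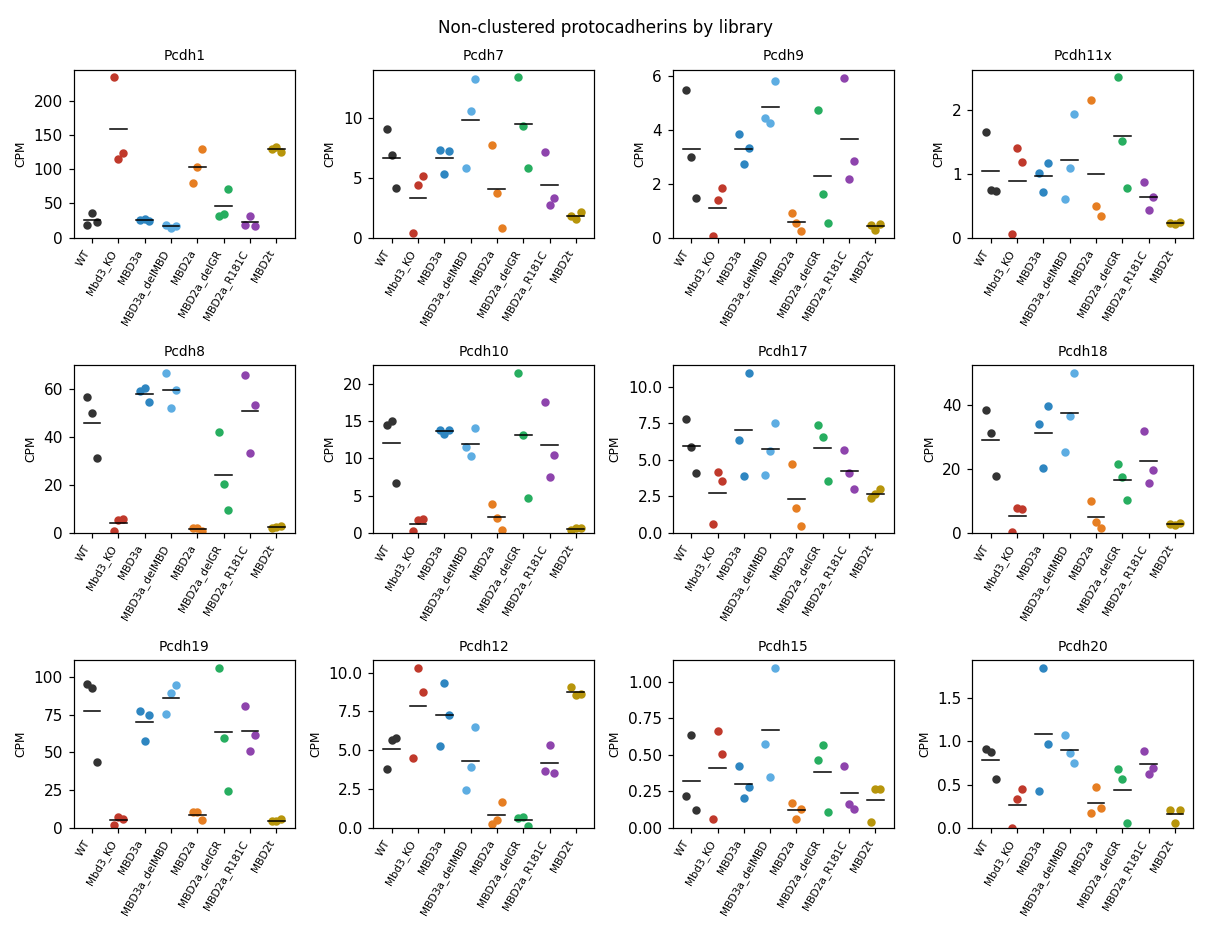
CPM of the 12 non-clustered protocadherins by library on linear axes that start at 0, with 3 points and a bar at the mean for each of 8 lines. Pcdh8, Pcdh10, Pcdh18 and Pcdh19 are near the axis in Mbd3 KO, MBD2a and MBD2t, Pcdh1 is high in the same lines, and Pcdh12 is low in MBD2a and MBD2a_delGR.

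The next question was whether adding back a construct returned the family to its WT level. In the MBD3a line 0 of 35 protocadherins were called against WT, where 0% of all genes were. In MBD3a_delMBD it was 0 of 35 against 0.0181% of all genes and in MBD2a_R181C 0 of 35 against 0.0181%. At an unadjusted p under 0.05 the count was 0 in all 3 lines, and DESeq2 also called 0 in each. Since almost no gene differed from WT in these lines, the protocadherins were no exception to the background. The beta sum was 134, 82.1 and 89.4 CPM in MBD3a, 112.5, 138 and 165 CPM in MBD3a_delMBD and 157.5, 74.3 and 105 CPM in MBD2a_R181C, each overlapping the WT range of 67.4 to 166 CPM. The alpha row was likewise in or near the WT range, with the highest values, 41.6 and 49.03 CPM, in libraries of MBD3a_delMBD (0.69 ± 0.42 against WT, edgeR adjusted p = 0.77).

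Against Mbd3 KO, the same 3 lines gave the mirror of the loss. MBD3a had 28 protocadherins called higher (13.5% of all genes were) and 1 called lower (18.9%), MBD3a_delMBD had 30 higher (15% of all genes) and 1 lower (20.9%), and MBD2a_R181C had 28 higher (13% of all genes) and 1 lower (18.1%). These comparisons share the Mbd3 KO libraries, and so their agreement is not independent. The gene called lower was Pcdh1 each time, with a log2 fold change of -2.62 ± 0.34 in MBD3a, -3.24 ± 0.35 in MBD3a_delMBD and -2.82 ± 0.34 in MBD2a_R181C. Every tested Pcdhb gene was called higher in all 3, from 2.16 to 4.42 in MBD3a, from 2.82 to 5.01 in MBD3a_delMBD and from 2.66 to 4.99 in MBD2a_R181C. MBD3a_delMBD gave 2 calls more than MBD3a, namely Pcdh7 (1.58 ± 0.63, edgeR adjusted p = 0.035) and Pcdh9 (2.12 ± 0.66, edgeR adjusted p = 0.00873). The corresponding values in MBD3a were 0.99 ± 0.64 (edgeR adjusted p = 0.195) and 1.57 ± 0.69 (edgeR adjusted p = 0.0577), and the difference between these lines was not tested. Pcdh7 lost its call under 7 of 13 alternatives (adjusted p between 0.0254 and 0.135). In MBD2a_R181C, Pcdh9 (1.73 ± 0.66, edgeR adjusted p = 0.0317) lost it under 8 of 13, the gamma row under 3 of 13 and Pcdh18 under 1 of 13. Pcdh20 lost its call in MBD3a, where its libraries overlapped those of Mbd3 KO, under 2 of 13. In MBD3a_delMBD Pcdh20 lost it under 7 of 13.

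MBD2a and MBD2t stayed with Mbd3 KO. In MBD2a, 28 of 35 protocadherins were called lower than in WT (13.7% of all genes) and 1 higher (16.9% of all genes), and in MBD2t 31 of 35 were lower (15.1% of all genes) and 1 higher (18.2% of all genes). The beta sum was 17.4, 12.8 and 4.46 CPM in MBD2a and 6.07, 5.88 and 7.28 CPM in MBD2t. All of these values lay below the lowest WT library, and all 21 tested Pcdhb genes were called lower in both lines. The alpha row was at 2.42, 2.24 and 1.35 CPM in MBD2a (-3.59 ± 0.51 against WT, edgeR adjusted p = 1.68e-05) and at 1.06, 0.928 and 0.971 CPM in MBD2t (-4.59 ± 0.54, edgeR adjusted p = 1.66e-06). The gamma row gave the exception. In MBD2a it had 159, 103 and 76.4 CPM, which overlapped WT, and it was not called (-0.56 ± 0.30, edgeR adjusted p = 0.119), while in MBD2t it had 65.3, 67.0 and 72.6 CPM and was (-1.28 ± 0.30, edgeR adjusted p = 0.00133). Set directly against each other, MBD2t and MBD2a did not differ in the gamma row by the test (-0.72 ± 0.30, edgeR adjusted p = 0.174).

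The delta-2 genes behaved in MBD2a and MBD2t as in Mbd3 KO. Pcdh8 had 1.99, 2.12 and 0.714 CPM in MBD2a (-4.85 ± 0.58, edgeR adjusted p = 3.39e-06) and 2.16, 2.20 and 2.71 CPM in MBD2t (-4.28 ± 0.54, edgeR adjusted p = 3.49e-06). Pcdh19 had 10.8, 10.6 and 4.92 CPM in MBD2a and 4.39, 4.35 and 5.58 CPM in MBD2t, for log2 fold changes of -3.14 ± 0.48 and -4.01 ± 0.50. Pcdh10 (-2.56 ± 0.61 and -4.45 ± 0.71) and Pcdh18 (-2.60 ± 0.65 and -3.44 ± 0.68) were called lower in both lines, and Pcdh17 (-1.39 ± 0.60 and -1.14 ± 0.57) in neither. Pcdh1 was called higher in both, with 79.1, 103 and 129 CPM in MBD2a (1.99 ± 0.33, edgeR adjusted p = 7.55e-05) and 130, 132 and 125 CPM in MBD2t (2.30 ± 0.33, edgeR adjusted p = 1.31e-05). Of the delta-1 genes, Pcdh9 was called lower in both, and Pcdh7 (-1.86 ± 0.67, edgeR adjusted p = 0.0219) and Pcdh11x (-2.17 ± 0.84, edgeR adjusted p = 0.0325) only in MBD2t among the 7 lines set against WT. Set directly against MBD2a, neither passed in MBD2t (-1.14 ± 0.69, edgeR adjusted p = 0.395, and -2.08 ± 0.86, edgeR adjusted p = 0.167). The calls of Pcdh7 and Pcdh11x against WT were lost under 3 and 5 of 12 alternatives, with adjusted p between 0.00272 and 0.0828 and between 0.00608 and 0.158. Without the WT library with the highest level of both genes they were -1.58 (adjusted p = 0.0828) and -1.68 (adjusted p = 0.158), and Pcdh9 in MBD2a was then at -1.98 (adjusted p = 0.0625, with 0.00321 to 0.0625 over its alternatives). Pcdh20 was called lower in MBD2t (-2.24 ± 0.69, edgeR adjusted p = 0.0088) and not in MBD2a (-1.43 ± 0.65, edgeR adjusted p = 0.0681), and between these lines it did not pass (-0.82 ± 0.85, edgeR adjusted p = 0.68).

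**Figure D4:**
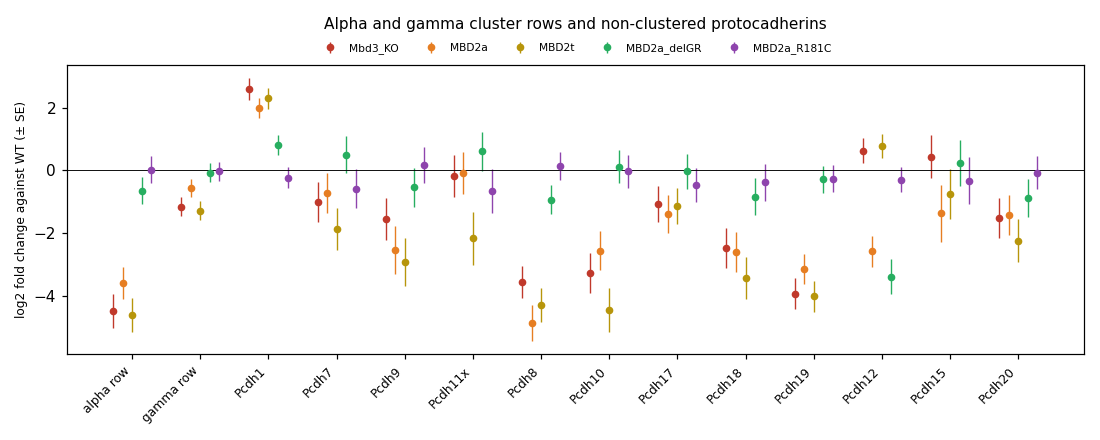
Log2 fold change against WT with its SE for the alpha row, the gamma row and the 12 non-clustered protocadherins in 5 lines. The Mbd3 KO, MBD2a and MBD2t points lie together for Pcdh1, Pcdh8, Pcdh18 and Pcdh19, whereas at Pcdh12 the MBD2a and MBD2a_delGR points, at -2.58 and -3.39, lie apart from the others.

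Against Mbd3 KO, 0 of 35 protocadherins were called in MBD2t, where 0.0241% of all genes were. At an unadjusted p under 0.05 there was 1, Pcdh11x, and DESeq2 called 0. In MBD2a 1 of 35 was called, Pcdh12, against 5.25% of all genes. The beta genes ran from -0.66 to 1.30 on the log2 scale in MBD2a against Mbd3 KO, with a median of 0.11, and from -1.93 to 0.04 in MBD2t, with a median of -0.61, and none was called. Without the Mbd3 KO library with the lowest beta sum, Pcdh8 was called lower in MBD2a as well, making 2.

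In MBD2a_delGR 1 of 35 protocadherins was called against WT, where 5.16% of all genes were, so the count was no more than the background share. Its beta sum was 135, 80.8 and 36.1 CPM, and the lowest of these was below every WT library. The fitted log2 fold changes of 30 of 35 members were below 0, among them all 21 tested Pcdhb genes. Their median was -0.56, against -0.007 for all genes tested, and 3 members had an unadjusted p under 0.05. The library with the lowest beta sum was the lowest of its line in 35 of 36 protocadherins. It had the lowest Pcdh8, at 9.67 CPM against 41.9 and 20.5 CPM, and the highest level of Pcdh1, at 71.4 CPM against 31.4 and 34.8 CPM. Its summed neuron markers were at 704 CPM and its pluripotent cell markers at 368 CPM, against 1970 and 1098 CPM, and 57.8 and 168 CPM, in the other MBD2a_delGR libraries. Its endoderm markers were at 1376 CPM against 121.8 and 98.55 CPM, and its trophoblast markers at 760 CPM against 157 and 170 CPM. Their part in the protocadherin values was not tested. Without the MBD2a_delGR library with the highest beta sum the count rose from 1 to 4, adding Pcdh8, Pcdhb15 and Pcdhb17, and without the WT library with the lowest beta sum it was 2, adding Pcdhb15.

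Against Mbd3 KO, 27 of 35 protocadherins were called higher in MBD2a_delGR (9.86% of all genes were) and 2 lower (15.3% of all genes). Pcdh8 (2.62 ± 0.51, edgeR adjusted p = 0.000384), Pcdh10 (3.38 ± 0.65) and Pcdh19 (3.65 ± 0.50) rose, as did all 21 tested Pcdhb genes, from 2.10 to 4.54. Some of these calls were fragile. Pcdhb9, whose libraries overlapped between the lines, lost its call under 4 of 12 alternatives, the gamma row under 4 of 13 and Pcdhb14 under 2 of 13. Pcdh8, Pcdhb19 and Pcdhb20 lost theirs in the fit of only the libraries compared. Pcdh18 passed narrowly (1.63 ± 0.63, edgeR adjusted p = 0.0409) and lost the call under 9 of 13 alternatives. The genes called lower were Pcdh1 (-1.79 ± 0.33, edgeR adjusted p = 0.00022) and Pcdh12.

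Pcdh12, chr18:38426746-38444055 (- strand), had a pattern unlike both the genes that fell and Pcdh1. It had 0.259, 0.530 and 1.68 CPM in MBD2a, from 9, 18 and 66 reads, and 0.614, 0.715 and 0.1385 CPM in MBD2a_delGR, from 20, 24 and 5 reads. All 6 values lay below those of all other libraries, the lowest of which was 2.45 CPM in MBD3a_delMBD. Against WT the log2 fold change was -2.58 ± 0.50 in MBD2a (edgeR adjusted p = 0.000294) and -3.39 ± 0.55 in MBD2a_delGR (edgeR adjusted p = 0.00236). Against Mbd3 KO, the parent line, it was -3.21 ± 0.49 (edgeR adjusted p = 0.000293) and -4.03 ± 0.54 (edgeR adjusted p = 1.01e-05). The remaining MBD2 lines did not share this. MBD2a_R181C had 3.67, 5.31 and 3.52 CPM (-0.29 ± 0.40 against WT, edgeR adjusted p = 0.999), and MBD2t had 9.07, 8.56 and 8.61 CPM (0.78 ± 0.39, edgeR adjusted p = 0.0893). Compared directly, Pcdh12 was higher in MBD2t than in MBD2a by 3.36 ± 0.48 on the log2 scale (edgeR adjusted p = 0.000233), the sole protocadherin called between them, against 4% of all genes. When the fit held only the libraries compared, the call in MBD2a_delGR against WT (-3.38, adjusted p = 0.0735) and that in MBD2a against Mbd3 KO (-3.22, adjusted p = 0.0532) were lost, at nearly the same size. Over all 13 alternatives their adjusted p ran from 1.44e-07 to 0.0735 and from 7.65e-08 to 0.0532. Pcdh1, whose gene lies 55038 bases from Pcdh12 on the same strand, was at 1.99 in MBD2a and at 0.81 in MBD2a_delGR against WT.

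The summed blood and endothelium markers were lowest in the same lines as Pcdh12. The summed level of the 6 markers (Pecam1, Cdh5, Kdr, Ptprc, Hba-a1 and Hbb-bh1) was between 48.9 and 65.4 CPM in WT, between 112 and 206 CPM in Mbd3 KO and between 136 and 140 CPM in MBD2t, but between 16.6 and 24.8 CPM in MBD2a and between 7.37 and 11.9 CPM in MBD2a_delGR. Of the 4 of these that could be tested, 2 were called lower in MBD2a (13.7% of all genes were) and 3 in MBD2a_delGR (2.47% of all genes were) against WT. The median log2 fold change of the 4 was -0.94 in MBD2a and -1.93 in MBD2a_delGR. In Mbd3 KO 1 of the 4 was called higher (19.6% of all genes were) and in MBD2t 3 were (18.2%), with 0 lower in both. Cdh5, the VE-cadherin of endothelial junctions, was at 2.29 ± 0.41 in Mbd3 KO, -1.78 ± 0.42 in MBD2a, -3.44 ± 0.47 in MBD2a_delGR and 1.81 ± 0.40 in MBD2t, in log2 fold change against WT. Kdr, a receptor of vascular growth factor, was at -2.66 ± 0.55 in MBD2a and -2.39 ± 0.54 in MBD2a_delGR, and was called lower in neither Mbd3 KO nor MBD2t. Cdh5 and Kdr were the 2 called lower in MBD2a, where the other tested markers were called in neither direction. The mesenchyme markers had 4 of 6 called lower in MBD2a and in MBD2a_delGR (13.7% and 2.47% of all genes were). In Mbd3 KO and in MBD2t, where Pcdh12 was not called, 3 of 6 were also called lower (14.2% and 15.1% of all genes). In MBD2a, Mbd3 KO and MBD2t 1 of 6 was called higher (16.9%, 19.6% and 18.2% of all genes), near the background share. Of the trophoblast markers, 5 of 7 were called higher in MBD2a (16.9% of all genes were) and 0 of 7 in MBD2a_delGR (2.69%). In Mbd3 KO and in MBD2t 7 of 7 were called higher (19.6% and 18.2% of all genes). The part of such cells in the Pcdh12 level was not tested.

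**Figure D5:**
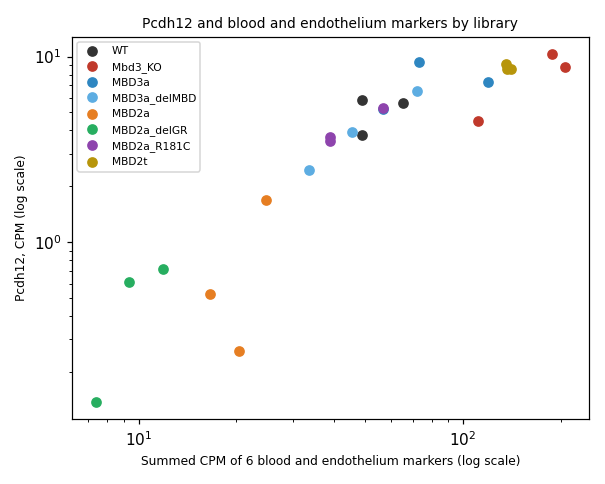
Pcdh12 in CPM against the summed CPM of 6 blood and endothelium markers, both on log axes, with 1 point per library and a colour for each of 8 lines. The MBD2a and MBD2a_delGR libraries lie apart at the lower left, with at most 1.68 CPM of Pcdh12 and 24.8 CPM of the markers.

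Genes that act with or on the protocadherins were taken as lists. Of 19 regulators of clustered protocadherin promoters, among them Ctcf and the cohesin subunits that loop a distal enhancer to a chosen promoter, 0 were called lower in Mbd3 KO (14.2% of all genes were) and 2 higher (19.6% of all genes), and the median log2 fold change was -0.15. The list held no more calls than its share of all genes. The higher ones were Dnmt3b, a de novo DNA methyltransferase (1.39 ± 0.25), and Rest, a repressor of neuronal genes (1.29 ± 0.19). Both were called higher in MBD2a (1.19 ± 0.25 and 1.21 ± 0.19) and MBD2t (1.56 ± 0.25 and 1.32 ± 0.19) too, and 0 of 19 were called in MBD2a_delGR, MBD2a_R181C, MBD3a or MBD3a_delMBD against WT.

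Of 20 partners and processing enzymes, 5 were called lower and 3 higher in Mbd3 KO, against the same 14.2% and 19.6% of all genes, so that the higher ones made up no more than the background share. The lower ones were Cdh2, the N-cadherin that pairs with Pcdh19 (-3.11 ± 0.57), Nlgn1, a synaptic adhesion protein bound by gamma protocadherins (-4.80 ± 0.67), and Fyn, Ret and Cyfip2 (-1.53 ± 0.19, -1.27 ± 0.22 and -1.12 ± 0.31). The higher ones were the kinase Ptk2b (2.16 ± 0.26), Wasf2 (1.51 ± 0.20) and Psen2 (1.14 ± 0.33). Of 23 tested other large cadherins, 12 were called lower (14.2% of all genes) and 4 higher (19.6%, about the background share), with a median of -2.002. Cdh2 is in this list and among the partners, and Cdh5 is also a blood and endothelium marker, so these counts share genes. Celsr2, Celsr3 and Cdh8 fell most (-4.35 ± 0.51, -4.00 ± 0.51 and -4.13 ± 0.54), while Fat2, Cdh1, Cdh3 and Cdh5 were higher, with the E-cadherin Cdh1 at 2.68 ± 0.39. In MBD2a 13 were lower and 3 higher (13.7% and 16.9% of all genes), in MBD2t 13 and 4 (15.1% and 18.2%), and in MBD2a_delGR 2 and 1 (2.47% and 2.69%).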

How the data were processed

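Poly(A) RNA from 24 libraries of NPCs was sequenced. The authors trimmed reads with Trim Galore, aligned them with STAR to mm9 and deposited raw read counts per gene, from which the strand setting of the counting is not given in the sources used here. Genes were filtered on low counts, scaled by the trimmed mean of M values and fitted over all 8 lines in edgeR 4.0.16 (R 4.3.3) with the newer of its quasi-likelihood tests. That version was chosen after its calls had been compared with an earlier account, and the older one is an alternative. Calls needed adjusted p below 0.05 with a log2 fold change past 1 in either direction. DESeq2 1.42.0 was an alternative. The code was tested on simulated data. Groups came from the labels. The columns carry no replicate number, so libraries were not paired. Libraries were individually derived clones except in MBD2t, where p-values rest on repeats of 1 clone. All protocadherins outside the clusters are named. In the beta cluster the 3 genes with the largest change in Mbd3 KO and the 2 most abundant are named, as is any member called where at most 5 were. The members, lists, promoter windows and motif were chosen with earlier results of these data known. ChIP samples were not analysed here, and the column named for the arginine-to-cysteine mutant carries another residue number than the label.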

Additional observations from a re-analysis of the deposited data

Results flagged for a closer look

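Over all 21 pairs of the 7 lines set against WT, the test of the difference itself called 371 protocadherin differences. Of these, 150 had opposite signs against WT together with a call against WT in either line of the pair. After these values had been seen, the search was narrowed to the 3 lines in which most protocadherins were lower, and Pcdh12 is what that narrowing left. Between Mbd3 KO and MBD2a the effects were 0.63 and -2.58 on the log2 scale, a difference of 3.21 (edgeR adjusted p = 0.000293). Between MBD2a and MBD2t they were -2.58 and 0.78, a difference of -3.36 (edgeR adjusted p = 0.000233). Each pair shares the WT libraries, and the tests compare the lines directly. Every MBD2a library was below every Mbd3 KO and MBD2t library in Pcdh12.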

How the results depend on the processing

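Of 2697 values of 210 protocadherin calls under the alternatives, 2622 kept their direction and call, 75 lost the call and 0 reversed. The lost ones belonged to 20 calls. In a fit of only the libraries compared, the count in MBD2a_delGR against WT went from 1 to 0 and that in MBD2a against Mbd3 KO from 1 to 0, Pcdh12 being the gene lost. Fewer libraries enter that fit. Leaving out 1 library gave 1 to 4 for the former and 1 to 2 for the latter. With library size as the only scaling, the median of all genes against WT shifted to 0.11 in Mbd3 KO, 0.14 in MBD2a and 0.12 in MBD2t. No paired analysis was possible because the columns of the count table carry no replicate number. Few reads limit Pcdh15 (2 to 45 per library), Pcdh20 (0 to 54) and the beta genes in Mbd3 KO, where 1 library held 33 reads over all 22 of them.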
